A study of Mus musculus with 12 samples.

Results

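The genes described here are 44 mouse genes known to be imprinted, Grb10 among them, taken by name from 18 imprinted clusters. They were set in a count table of 55401 genes, of which 29550 had a count. A row in the deposited table of normalised values was found for 43 of the 44, and Zim1 had 0 counts in all 12 libraries. A filter on low counts kept 34 of them for testing, in 17 of the 18 clusters. RNA was sequenced from cells labelled B16F10, a mouse melanoma line, in 4 groups of 3 libraries. The sgRnf19a_IR group carried a guide RNA against Rnf19a, a RING-type E3 ubiquitin ligase, and was taken 24 hours into a treatment that the labels call IR without spelling it out. The control_IR group carried the control guide sgNC and had the same treatment. The untreated sgRnf19a group carried the Rnf19a guide, and the untreated control group carried sgNC. All 4 groups therefore share the line, and each carried a guide RNA, either that against Rnf19a or sgNC. Whether sgRnf19a cells were a clone or a pool of edited cells is not given in the sources used here, and the same holds for whether replicates came from separate cultures. If they did not, the p-values rest on technical spread alone.

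Imprinted genes are transcribed mainly or only from the copy inherited from a given parent. The choice is set by DNA methylation laid down at imprinting control regions in the egg or the sperm, and is kept after fertilisation by maintenance methylation and by proteins such as ZFP57 that bind methylated control regions. Many imprinted genes act on growth: paternally expressed genes such as Igf2 promote it, and maternally expressed genes such as Grb10, Igf2r, Cdkn1c and Phlda2 restrain it. Several clusters are run by long noncoding RNAs that silence their neighbours in cis, such as Airn beside Igf2r and Kcnq1ot1 beside Cdkn1c. Total counts do not separate the parental copies, so the values below are sums over both.

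Total counts ran from 34262483 to 45576326 in the IR-treated libraries and from 62681644 to 71265107 in the untreated ones, and a read pair was worth about 4 counts. Genes for ribosomal RNA took 11.3% to 22.1% of the counts after IR and 0.223% to 0.696% without it. The IR-treated libraries also held less of long transcripts. On the log2 scale, the median level of long transcripts (over 6 kb) less the median of short ones (under 1 kb) was 0.31, -0.32 and 1.13 in sgRnf19a_IR replicates 1, 3 and 4 and between -0.69 and -0.41 in control_IR, against 2.78 to 2.99 in sgRnf19a and 1.89 to 2.68 in control. Values are therefore also given from a fit in which transcript length and GC content were regressed out, called the corrected fit below. The 6 IR-treated libraries are named by the numbers of their columns, which are not the replicate numbers of the labels. They were placed in these groups because no other group was left for them. Melanocyte markers were at or near 0 apart from Mitf, a transcription factor of melanocytes and other cells: 4 of 8 had no count in any library, and the summed level of the 8 was 2.29 to 16.4 CPM, counts scaled by library size. Rnf19a itself had 22.6 to 27.5 CPM in sgRnf19a and 21.5 to 33.5 CPM in control cells, a log2 fold change of -0.16 ± 0.36 (SE; edgeR adjusted p = 0.881). In sgRnf19a_IR it had 11.6 to 37.7 CPM, against 4.37 to 8.06 CPM in control_IR (1.92 ± 0.38; adjusted p = 0.00352). Its RNA level therefore does not check the guide labels.

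Stretches of 250 bases just upstream of annotated starts are printed for Grb10, Ppp1r9a, Peg3 and Igf2r, 4 of the 5 genes that differed with the guide in untreated cells, since the CpG content of such stretches is what DNA methylation acts on. They are read in the direction of transcription, from RefSeq on GRCm38.p6, with each CpG in capitals. That of Cdkn1c, the fifth, was not used here. The first Grb10 stretch, at chr11:12027972-12028221 on the minus strand, lies inside the gene, and the second, at chr11:12037421-12037670, lies before its outermost start. Ppp1r9a also has an outer stretch, at chr6:4902725-4902974 on the plus strand, and an inner one, at chr6:4903061-4903310. The others are those of Peg3 (chr7:6730420-6730669, minus strand) and Igf2r (chr17:12769707-12769956, minus strand).
Grb10, inner start: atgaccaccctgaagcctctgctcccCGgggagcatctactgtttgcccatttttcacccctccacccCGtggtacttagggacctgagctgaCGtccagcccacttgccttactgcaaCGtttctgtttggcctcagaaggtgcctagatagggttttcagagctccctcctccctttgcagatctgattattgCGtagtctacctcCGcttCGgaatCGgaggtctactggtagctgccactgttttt
Grb10, outer start: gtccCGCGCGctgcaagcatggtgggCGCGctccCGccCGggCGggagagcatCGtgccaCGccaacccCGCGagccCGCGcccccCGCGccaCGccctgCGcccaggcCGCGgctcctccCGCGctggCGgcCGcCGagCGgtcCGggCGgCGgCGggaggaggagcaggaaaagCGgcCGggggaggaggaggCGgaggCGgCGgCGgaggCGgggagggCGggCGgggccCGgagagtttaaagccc
Ppp1r9a, outer start: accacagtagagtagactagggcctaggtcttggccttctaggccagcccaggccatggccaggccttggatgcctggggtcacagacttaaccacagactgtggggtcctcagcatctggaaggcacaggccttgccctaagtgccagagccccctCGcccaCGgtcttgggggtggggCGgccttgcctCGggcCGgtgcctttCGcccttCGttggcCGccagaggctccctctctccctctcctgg
Ppp1r9a, inner start: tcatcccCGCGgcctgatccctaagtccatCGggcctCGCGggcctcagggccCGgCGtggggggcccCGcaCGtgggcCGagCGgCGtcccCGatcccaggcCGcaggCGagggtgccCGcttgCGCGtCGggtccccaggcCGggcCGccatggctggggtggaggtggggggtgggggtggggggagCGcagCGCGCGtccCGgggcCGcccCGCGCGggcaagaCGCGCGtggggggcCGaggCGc
Peg3: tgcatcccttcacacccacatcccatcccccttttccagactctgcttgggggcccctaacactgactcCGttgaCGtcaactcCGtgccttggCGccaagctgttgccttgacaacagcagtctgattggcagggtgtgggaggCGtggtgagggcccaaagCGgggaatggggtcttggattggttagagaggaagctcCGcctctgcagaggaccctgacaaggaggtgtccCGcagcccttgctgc
Igf2r: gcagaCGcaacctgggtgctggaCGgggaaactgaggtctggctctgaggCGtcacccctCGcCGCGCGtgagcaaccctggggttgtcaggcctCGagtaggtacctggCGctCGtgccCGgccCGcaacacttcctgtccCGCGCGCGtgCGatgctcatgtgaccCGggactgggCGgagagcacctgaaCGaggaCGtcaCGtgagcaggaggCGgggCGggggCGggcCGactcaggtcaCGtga
The outer Grb10 stretch held 40 CpG, the inner Ppp1r9a stretch 35 and the Igf2r stretch 27, whereas the inner Grb10 stretch, the outer Ppp1r9a stretch and the Peg3 stretch held 8 each. Over the 34 members with an entry, the 52 upstream stretches had a median of 10 CpG (0 to 40), against 6 over all 32851 stretches of that length. The hexamer TGCCGC, the core that ZFP57 binds when methylated, was searched on both strands and was in 7 of the 52 (13.5%), against 8.68% of all. The stretches are not independent. Those of Mest at chr6:30737800-30738049 and chr6:30737803-30738052 overlap, and both hold the hexamer. The hexamer was in none of those printed here. The deposited values hold no methylation measurement, so these letters are a description of the genes only.

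In untreated cells the Rnf19a guide went with a near loss of Grb10 RNA and with a gain of Cdkn1c and Ppp1r9a RNA. Of 34 imprinted genes tested, 5 differed (2 higher and 3 lower in sgRnf19a cells), which is 14.7%, against 6.22% of all 18183 genes (3.02% higher and 3.20% lower). The members were chosen with earlier results of these data known, so these shares are no test of imprinted genes as a set. The median log2 fold change was 0.08 over the members and 0.03 over all genes. In the corrected fit the same 5 genes were called, in the same directions, against 8.03% of all genes (4.05% higher and 3.98% lower). The libraries of the 2 groups did not overlap for 7 members that were higher and 7 that were lower, against 22.3% and 15.9% of all genes. A difference in a bulk sample can come from fewer cells with the RNA or from less RNA per cell, and these cannot be told apart.

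Grb10 encodes an adaptor that binds the insulin and IGF1 receptors and restrains their signalling. It lies at chr11:11930508-12037401 on the minus strand (mm10). Grb10 had 3.60, 0.61 and 0.69 CPM in sgRnf19a replicates 1, 2 and 3, against 329, 328 and 302 CPM in control replicates 1, 2 and 3. The groups were far apart, and within the sgRnf19a group, replicate 1 stood above the other two. The log2 fold change was -7.61 ± 0.64 (SE), or 195-fold lower in sgRnf19a cells (edgeR's quasi-likelihood test, adjusted p = 1.84e-05), and -8.94 when sgRnf19a replicate 1 was left out. It ranked 12th from the lowest of 18183 genes. Per transcript length Grb10 had 0.197 FPKM in sgRnf19a cells, where it ranked 21st among the members, and 39.5 FPKM in control cells, where it ranked 3rd after Gnas and Igf2r. The 5 fibroblast markers, summed, had 58.2 to 142 CPM in sgRnf19a (142 in replicate 1) and 468 to 503 CPM in control cells, with all 5 detected in each library. Col3a1 made up most of this gap, with a mean of 30.0 CPM in sgRnf19a and 418 CPM in control cells. The others did not share one direction: Col1a1 had means of 42.5 and 54.3 CPM, Col1a2 11.6 and 9.18 CPM, Pdgfra 2.76 and 5.33 CPM and Thy1 0.752 and 0.626 CPM, in sgRnf19a and control cells. Their part in the Grb10 result was not tested.

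**Figure D1:**
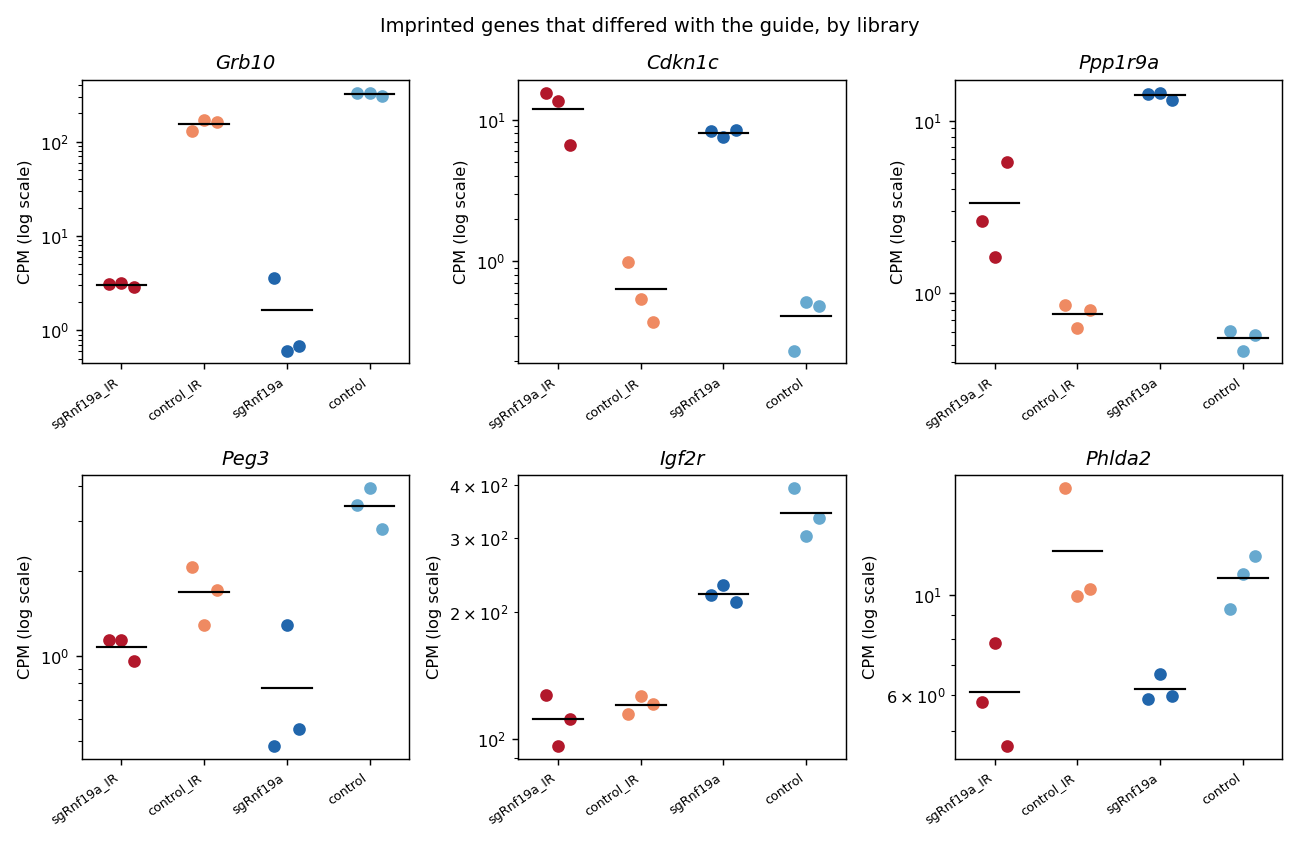
Level of 6 imprinted genes that differed with the guide, in CPM on a log axis (vertical), in each library of the 4 groups (horizontal); points are libraries and bars are group means. Grb10 lies at 3.60 CPM or less in all 6 libraries with the Rnf19a guide and at 128 CPM or more in all 6 with the control guide, while Cdkn1c lies above its controls in both pairs of groups.

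Cdkn1c encodes p57, an inhibitor of cyclin-dependent kinases, expressed from the maternal copy in the Kcnq1 cluster (chr7:143458339-143461050, minus strand). It had 8.29, 7.52 and 8.46 CPM in sgRnf19a, against 0.24, 0.52 and 0.48 CPM in control cells. Every sgRnf19a library was above every control library. The log2 fold change was 4.28 ± 0.43 (SE), 19.5-fold higher in sgRnf19a cells (edgeR adjusted p = 7.51e-05). The control libraries held 97 counts of Cdkn1c in all, so the size of this fold rests on few read pairs.

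Ppp1r9a encodes neurabin, an actin-binding protein that targets protein phosphatase 1, in the Peg10 cluster (chr6:4902917-5165661, plus strand). It had 14.3, 14.5 and 13.1 CPM in sgRnf19a, against 0.61, 0.47 and 0.58 CPM in control cells, again with no overlap. The log2 fold change was 4.66 ± 0.41 (SE), 25.3-fold higher (edgeR adjusted p = 2.85e-05). Its control libraries held 128 counts in all, so the size of this fold also rests on few read pairs. From the highest change, Ppp1r9a ranked 89th and Cdkn1c 102nd of 18183 genes.

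The remaining pair of called genes fell by less. Peg3, a paternally expressed zinc-finger gene (chr7:6703892-6730421, minus strand), had 0.48, 1.29 and 0.55 CPM in sgRnf19a, against 3.43, 3.93 and 2.83 CPM in control cells, a log2 fold change of -2.13 ± 0.38 (SE; edgeR adjusted p = 0.00541). Igf2r, whose receptor binds IGF2 and carries it to lysosomes for breakdown (chr17:12682406-12769664, minus strand), had 219, 231 and 212 CPM in sgRnf19a, against 392, 303 and 334 CPM in control cells. Its groups did not overlap, and the log2 fold change was -0.64 ± 0.14 (SE), 1.56-fold lower (edgeR adjusted p = 0.0153). The Igf2r call was lost without any of the 3 sgRnf19a libraries or without control replicate 1 (adjusted p = 0.054 to 0.0811), with log2 fold changes of -0.67 to -0.53.

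Phlda2, a placental growth restrainer that neighbours Cdkn1c, had 5.88, 6.68 and 5.96 CPM in sgRnf19a, against 9.31, 11.1 and 12.2 CPM in control cells. The groups did not overlap, but the log2 fold change of -0.82 ± 0.25 (SE) missed the threshold (edgeR adjusted p = 0.0822). Kcnq1ot1, the noncoding RNA of the same cluster, had 25.4, 29.5 and 28.9 CPM in sgRnf19a, against 10.6, 17.5 and 4.71 CPM in control cells, with a log2 fold change of 1.35 ± 0.86 (SE; edgeR adjusted p = 0.491). Its groups did not overlap either, and its 3 control libraries spread widely. Slc22a18, a transporter gene next to Phlda2, had 1.12 to 1.72 CPM in sgRnf19a and 0.927 to 1.06 CPM in control cells (adjusted p = 0.837).

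Genes beside the 5 called ones were counted within 500 kb, a step added after their values were seen. Of 58 tested neighbours, edgeR called 1, against 6.22% of all genes. It was Pon3, a paraoxonase gene near Ppp1r9a, higher in sgRnf19a cells with a log2 fold change of 0.75 ± 0.13 (SE; edgeR adjusted p = 0.00461). Near Grb10 there were 4 tested neighbours, with log2 fold changes of -1.21 to 0.07, none called. Ddc and Cobl, which flank Grb10, are themselves on the member list: Cobl, an actin nucleator, had at most 0.227 CPM in sgRnf19a and at most 0.193 CPM in control cells, and Ddc, the aromatic amino acid decarboxylase, had 0 counts in both.

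In IR-treated cells the guide was set against the control guide again, in other libraries. Of the 34 tested members, 10 differed (7 higher and 3 lower in sgRnf19a_IR), or 29.4%, against 33.8% of all genes (21.0% higher and 12.8% lower). The median log2 fold change was 0.13 over the members and 0.07 over all genes. The corrected fit called 3 higher and 6 lower, against 11.4% and 14.9% of all genes (26.3% in all), and 3 of the 7 higher and all 3 lower genes were among them. Libraries did not overlap for 9 higher and 6 lower members, against 23.0% and 19.5% of all genes.

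Grb10 had 3.11, 3.17 and 2.88 CPM in sgRnf19a_IR replicates 1, 3 and 4, against 128, 168 and 161 CPM in control_IR replicates 1, 4 and 5. The log2 fold change was -5.64 ± 0.59 (SE), 49.9-fold lower in sgRnf19a_IR (edgeR adjusted p = 6.19e-05), and -6.03 in the corrected fit. Cdkn1c had 15.5, 13.5 and 6.66 CPM in sgRnf19a_IR, against 0.99, 0.54 and 0.38 CPM in control_IR. Over the control_IR libraries it had 61 counts in all, again few read pairs. It was 18.9-fold higher, a log2 fold change of 4.24 ± 0.44 (SE; edgeR adjusted p = 6.04e-05), and 4.75 in the corrected fit. The summed fibroblast markers were at 97.6 to 199 CPM in sgRnf19a_IR and at 397 to 425 CPM in control_IR. Col3a1 had a mean of 52.1 CPM in sgRnf19a_IR and 347 CPM in control_IR, whereas Col1a1 had 67.6 and 54.4 CPM, Col1a2 26.2 and 9.84 CPM, Pdgfra 1.95 and 1.53 CPM and Thy1 1.02 and 1.40 CPM, in the same order. Their part was not tested.

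Ppp1r9a had 2.62, 1.62 and 5.72 CPM in sgRnf19a_IR, against 0.85, 0.63 and 0.81 CPM in control_IR. Over the control_IR libraries it had 76 counts in all. Its groups stayed apart, with replicate 4 the highest. The log2 fold change was 2.13 ± 0.39 (SE; edgeR adjusted p = 0.00238), 1.49 without sgRnf19a_IR replicate 4 and 1.17 in the corrected fit (adjusted p = 0.00715). Copg2, a coatomer subunit gene that overlaps the 3′ end of Mest on the other strand, had 31.5, 19.05 and 45.4 CPM in sgRnf19a_IR, against 9.20, 10.6 and 8.96 CPM in control_IR. Its log2 fold change was 1.74 ± 0.25 (SE; edgeR adjusted p = 0.000608), and 0.94 in the corrected fit (adjusted p = 0.000658).

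The other 4 higher genes were called less firmly, and sgRnf19a_IR replicate 4, the IR-treated library with the most long transcripts, was the highest in each. For all 4, every sgRnf19a_IR library was above every control_IR library, some by little. Ube3a, the E3 ubiquitin ligase silenced on the paternal copy in neurons, had 49.7, 36.0 and 146 CPM in sgRnf19a_IR, against 17.9, 26.8 and 20.0 CPM in control_IR. Its log2 fold change was 1.84 ± 0.41 (SE; edgeR adjusted p = 0.00637), 0.99 without replicate 4 and 0.41 in the corrected fit (adjusted p = 0.052). Impact, an inhibitor of the stress kinase GCN2, had 37.3, 26.9 and 101 CPM in sgRnf19a_IR, against 16.7, 25.8 and 18.6 CPM in control_IR. The Impact log2 fold change was 1.43 ± 0.39 (SE; edgeR adjusted p = 0.0152), 0.66 without replicate 4 and 0.40 in the corrected fit (adjusted p = 0.141), and its call was lost without control_IR replicate 1 (adjusted p = 0.0668) or 5 (adjusted p = 0.0557). Kcnq1ot1 had 2.32, 2.24 and 34.2 CPM in sgRnf19a_IR, against 1.31, 2.04 and 0.778 CPM in control_IR. A single library was thus far above the rest. The Kcnq1ot1 log2 fold change was 3.23 ± 0.97 (SE; edgeR adjusted p = 0.0236), 0.73 without replicate 4 (adjusted p = 0.315) and 0.95 in the corrected fit (adjusted p = 0.118). The annotated transcript is 93092 bases long and unspliced, and it lies within Kcnq1 on the opposite strand. Its call was also lost without control_IR replicate 1 (adjusted p = 0.0811) or 5 (adjusted p = 0.0858). Zrsr1, a splicing-factor retrogene inside Commd1, had 8.01, 6.80 and 11.0 CPM in sgRnf19a_IR, against 3.91, 6.40 and 4.96 CPM in control_IR. For Zrsr1 the log2 fold change was 0.76 ± 0.23 (SE; edgeR adjusted p = 0.0248). It was not called without sgRnf19a_IR replicate 4 (adjusted p = 0.0898), control_IR replicate 1 (adjusted p = 0.104) or 5 (adjusted p = 0.0749), or in the corrected fit (0.16, adjusted p = 0.535).

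Phlda2 and Trappc9 were the other lower genes besides Grb10. Phlda2 had 5.80, 7.83 and 4.63 CPM in sgRnf19a_IR, against 17.2, 9.95 and 10.3 CPM in control_IR, a log2 fold change of -1.04 ± 0.25 (SE; edgeR adjusted p = 0.00885) and -0.60 in the corrected fit (adjusted p = 0.0454). Trappc9, a subunit of a vesicle-tethering complex, had 15.2, 16.6 and 8.15 CPM in sgRnf19a_IR, against 21.8, 22.4 and 23.9 CPM in control_IR. The Trappc9 log2 fold change was -0.77 ± 0.23 (SE; edgeR adjusted p = 0.0222), or -0.67 in the corrected fit (adjusted p = 0.0221), and its call was lost without control_IR replicate 1, 4 or 5 (adjusted p = 0.0529, 0.0504 and 0.0683). In untreated cells Trappc9 had 18.8, 17.8 and 18.9 CPM in sgRnf19a, against 27.9, 22.3 and 20.5 CPM in control cells (-0.35 ± 0.22; adjusted p = 0.497).

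Peg3 and Igf2r, lower with the guide in untreated cells, were not called in IR-treated cells. Peg3 had 1.14, 1.14 and 0.958 CPM in sgRnf19a_IR, against 2.06, 1.29 and 1.72 CPM in control_IR, a log2 fold change of -0.65 ± 0.38 (SE; edgeR adjusted p = 0.219) and -1.28 in the corrected fit (adjusted p = 0.0376). Igf2r had 127, 96.3 and 112 CPM in sgRnf19a_IR, against 114, 127 and 121 CPM in control_IR. Its groups overlapped, with a log2 fold change of -0.11 ± 0.14 (SE; edgeR adjusted p = 0.571) and -0.41 in the corrected fit (adjusted p = 0.0474). Commd1, at -0.53 (adjusted p = 0.15), was also called in the corrected fit, at -1.10 (adjusted p = 0.0408).

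**Figure D2:**
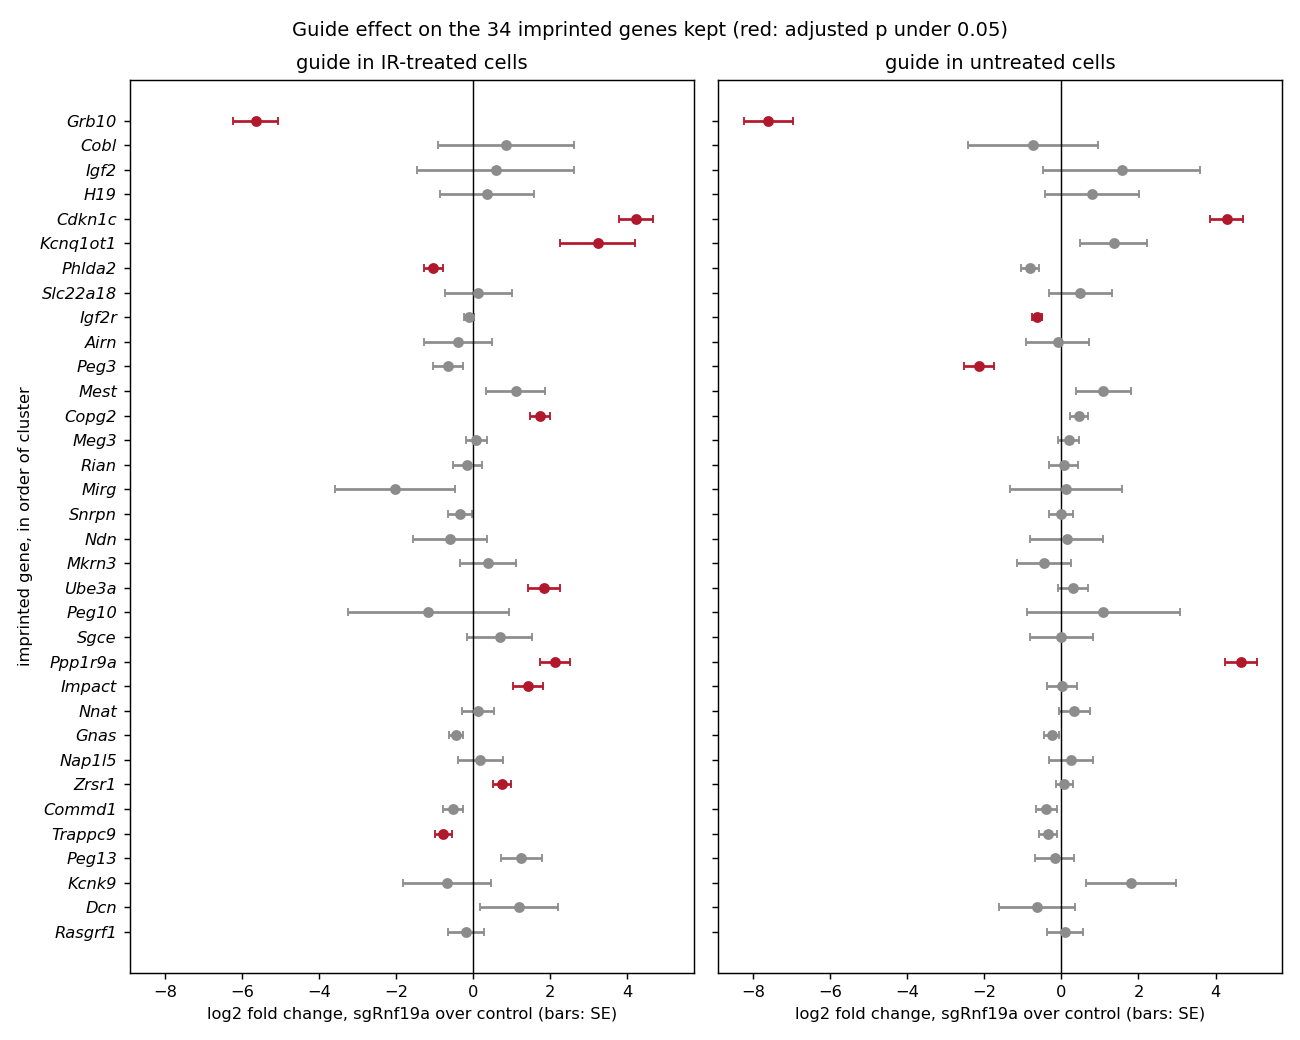
Log2 fold change of sgRnf19a over control on deposited counts (horizontal axis) for the 34 tested members in order of cluster (vertical axis), with bars of 1 SE, in IR-treated cells (left) and untreated cells (right); red points passed an edgeR adjusted p under 0.05 and grey points did not. Grb10 at -5.64 and -7.61 and Cdkn1c at 4.24 and 4.28 stand far from 0 in both panels, and Ppp1r9a is at 2.13 and 4.66.

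The IR treatment was next set against no treatment within each guide. On deposited counts, the control cells held more Commd1, Snrpn and Meg3 RNA after IR. They held less Igf2r, Copg2, Ube3a, Impact, Zrsr1, Kcnq1ot1 and Peg3 RNA. Zrsr1, Kcnq1ot1 and Peg3 were not called in the corrected fit. Of the 34 members, 6 differed in sgRnf19a cells (2 higher and 4 lower), or 17.6%, against 35.6% of all genes (18.0% higher and 17.6% lower). In control cells 10 differed (3 higher and 7 lower), or 29.4%, against 47.9% of all genes (22.2% higher and 25.7% lower). The member medians were 0.12 in sgRnf19a and 0.07 in control cells, and those of all genes were -0.02 in both. All these comparisons set libraries with 11.3% to 22.1% ribosomal RNA genes against libraries with at most 0.696%. That difference cannot be told apart from IR, and its part in the values below was not tested. The corrected fit called 6 higher and 7 lower in sgRnf19a cells, against 19.1% and 16.6% of all genes (35.7% in all). In control cells it called 6 higher and 6 lower, against 24.3% and 17.3% (41.7% in all). Of the calls on deposited counts, it kept all 6 in sgRnf19a cells and 3 higher and 4 lower in control cells. Treated and untreated libraries did not overlap for 3 higher and 8 lower members in sgRnf19a cells, against 23.2% and 26.6% of all genes, and for 10 higher and 9 lower in control cells, against 30.0% and 32.1%.

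Commd1, whose protein acts in copper handling and NF-kB control, had the largest rise that was called. It had 116, 144 and 68.0 CPM in sgRnf19a_IR, against 30.6, 31.9 and 38.0 CPM in sgRnf19a, and 163, 146 and 163 CPM in control_IR, against 39.3, 32.4 and 60.0 CPM in control. All 6 treated libraries were above all 6 untreated ones. The log2 fold change was 1.70 ± 0.27 (SE; edgeR adjusted p = 0.00067) in sgRnf19a cells and 1.84 ± 0.27 (adjusted p = 0.000236) in control cells, and the corrected values were 2.19 (adjusted p = 0.000801) and 2.76 (adjusted p = 0.000148). Commd1 and Zrsr1 overlap on opposite strands and a Commd1b model overlaps both, so with counting by strand not stated their reads may be mixed. The same limit holds for other members that overlap a gene on the opposite strand, Cdkn1c, Igf2r, Copg2, Ube3a and Kcnq1ot1 among them. Gene models on its own strand overlap Ppp1r9a, where a strand setting would not separate reads.

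Snrpn, which encodes the SmN splicing protein, had 1.81, 2.31 and 1.46 CPM in sgRnf19a_IR, against 0.774, 1.43 and 0.813 CPM in sgRnf19a, and 2.20, 2.58 and 2.31 CPM in control_IR, against 1.08, 1.04 and 0.927 CPM in control. The Snrpn log2 fold change was 0.88 ± 0.32 (SE; edgeR adjusted p = 0.0465) in sgRnf19a cells and 1.22 ± 0.32 (adjusted p = 0.0071) in control cells, with corrected values of 1.06 (adjusted p = 0.0389) and 1.69 (adjusted p = 0.00268). The call in sgRnf19a cells was lost without any of 10 libraries, each left out alone (adjusted p = 0.059 to 0.173). Meg3, the maternal noncoding RNA of the Dlk1 cluster, had 8.56, 9.52 and 7.88 CPM in sgRnf19a_IR, against 5.30, 7.92 and 3.54 CPM in sgRnf19a, and 10.1, 6.68 and 7.65 CPM in control_IR, against 4.98, 5.75 and 4.03 CPM in control. Its log2 fold change was 0.63 ± 0.28 (SE; edgeR adjusted p = 0.0986) in sgRnf19a cells and 0.73 ± 0.28 (adjusted p = 0.0485) in control cells. The Meg3 call was lost without any of 8 libraries, each left out alone (adjusted p = 0.0553 to 0.193), and the corrected values were larger, at 1.34 in sgRnf19a (adjusted p = 0.00276) and 1.90 in control cells (adjusted p = 0.000229).

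Igf2r had 127, 96.3 and 112 CPM in sgRnf19a_IR, against 219, 231 and 212 CPM in sgRnf19a, and 114, 127 and 121 CPM in control_IR, against 392, 303 and 334 CPM in control. It fell in both, with a log2 fold change of -0.98 ± 0.14 (SE; edgeR adjusted p = 0.000303) in sgRnf19a cells and -1.51 ± 0.14 (adjusted p = 4.09e-05) in control cells. The treated groups lay together, and the untreated groups lay apart. The corrected values were -0.52 (adjusted p = 0.0121) and -0.72 (adjusted p = 0.00128). Airn, the noncoding RNA that overlaps Igf2r on the other strand, had 0.138 to 2.61 CPM in sgRnf19a_IR, against 3.72 to 5.90 CPM in sgRnf19a. It had 0.71 to 2.38 CPM in control_IR, against 2.08 to 8.16 CPM in control. By edgeR it was not called (adjusted p = 0.0705 and 0.0886), though the corrected fit called it in sgRnf19a cells (-2.58, adjusted p = 0.0204). That fit took Airn as short, by its longest annotated transcript of 1375 bases, while the gene spans chr17:12741311-12860136. With counting by strand not stated, its reads may also be mixed with those of Igf2r.

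Copg2 had 31.5, 19.05 and 45.4 CPM in sgRnf19a_IR, against 51.1, 52.4 and 52.8 CPM in sgRnf19a, and 9.20, 10.6 and 8.96 CPM in control_IR, against 43.2, 35.6 and 34.8 CPM in control. The Copg2 log2 fold change was -0.70 ± 0.24 (SE; edgeR adjusted p = 0.0408) in sgRnf19a cells and -1.98 ± 0.25 (adjusted p = 0.000117) in control cells, with corrected values of -0.41 (adjusted p = 0.0384) and -1.06 (adjusted p = 0.000147). The value of -0.70 was not called without any of 10 libraries, each left out alone (adjusted p = 0.0512 to 0.108). Mest, the paternally expressed gene it overlaps, had 1.07 CPM or less in every library.

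Ube3a had 49.7, 36.0 and 146 CPM in sgRnf19a_IR, against 213, 232 and 259 CPM in sgRnf19a, and 17.9, 26.8 and 20.0 CPM in control_IR, against 204, 205 and 163 CPM in control. Each treated library was below each untreated one. The Ube3a log2 fold change was -1.60 ± 0.41 (SE; edgeR adjusted p = 0.00986) in sgRnf19a cells and -3.14 ± 0.43 (adjusted p = 0.000166) in control cells, and the corrected values were -0.39 (adjusted p = 0.0474) and -0.76 (adjusted p = 0.000969). Its longest transcript has 9856 bases. Without sgRnf19a_IR replicate 4 the value in sgRnf19a cells was -2.46.

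Impact, Zrsr1 and Kcnq1ot1 were called in control cells and not in sgRnf19a cells. Impact had 37.3, 26.9 and 101 CPM in sgRnf19a_IR, against 88.6, 89.7 and 85.8 CPM in sgRnf19a, and 16.7, 25.8 and 18.6 CPM in control_IR, against 94.4, 93.8 and 73.2 CPM in control. Its log2 fold change was -0.68 ± 0.38 (SE; edgeR adjusted p = 0.192) in sgRnf19a cells, where it was -1.46 without replicate 4 of sgRnf19a_IR (adjusted p = 7.61e-05), and -2.10 ± 0.40 (adjusted p = 0.000973) in control cells. The corrected value in control cells was -0.97 (adjusted p = 0.00128). Among the treated libraries only replicate 4 of sgRnf19a_IR reached the untreated range of Impact. Zrsr1 had 8.01, 6.80 and 11.0 CPM in sgRnf19a_IR, against 11.7, 14.0 and 11.8 CPM in sgRnf19a, and 3.91, 6.40 and 4.96 CPM in control_IR, against 13.8, 11.5 and 10.3 CPM in control. The Zrsr1 log2 fold change was -0.54 ± 0.22 (SE; edgeR adjusted p = 0.0834) in sgRnf19a cells, and -0.76 without replicate 4 (adjusted p = 0.0125). In control cells it was -1.22 ± 0.23 (SE; edgeR adjusted p = 0.000929) and -0.43 in the corrected fit (adjusted p = 0.0541). Kcnq1ot1 had 2.32, 2.24 and 34.2 CPM in sgRnf19a_IR, against 25.4, 29.5 and 28.9 CPM in sgRnf19a, and 1.31, 2.04 and 0.778 CPM in control_IR, against 10.6, 17.5 and 4.71 CPM in control. The other 5 treated libraries were below every untreated one, and sgRnf19a_IR replicate 4 was above them all. The Kcnq1ot1 log2 fold change was -1.11 ± 0.86 (SE; edgeR adjusted p = 0.349) in sgRnf19a cells, -3.62 without that library (adjusted p = 9.39e-05) and -1.06 in the corrected fit (adjusted p = 0.0492). In control cells it was -2.99 ± 0.96 (SE; edgeR adjusted p = 0.022) and -0.90 in the corrected fit (adjusted p = 0.108). That call was lost without control replicate 2 or control_IR replicate 1 or 5 (adjusted p = 0.0743, 0.0693 and 0.0789).

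**Figure D3:**
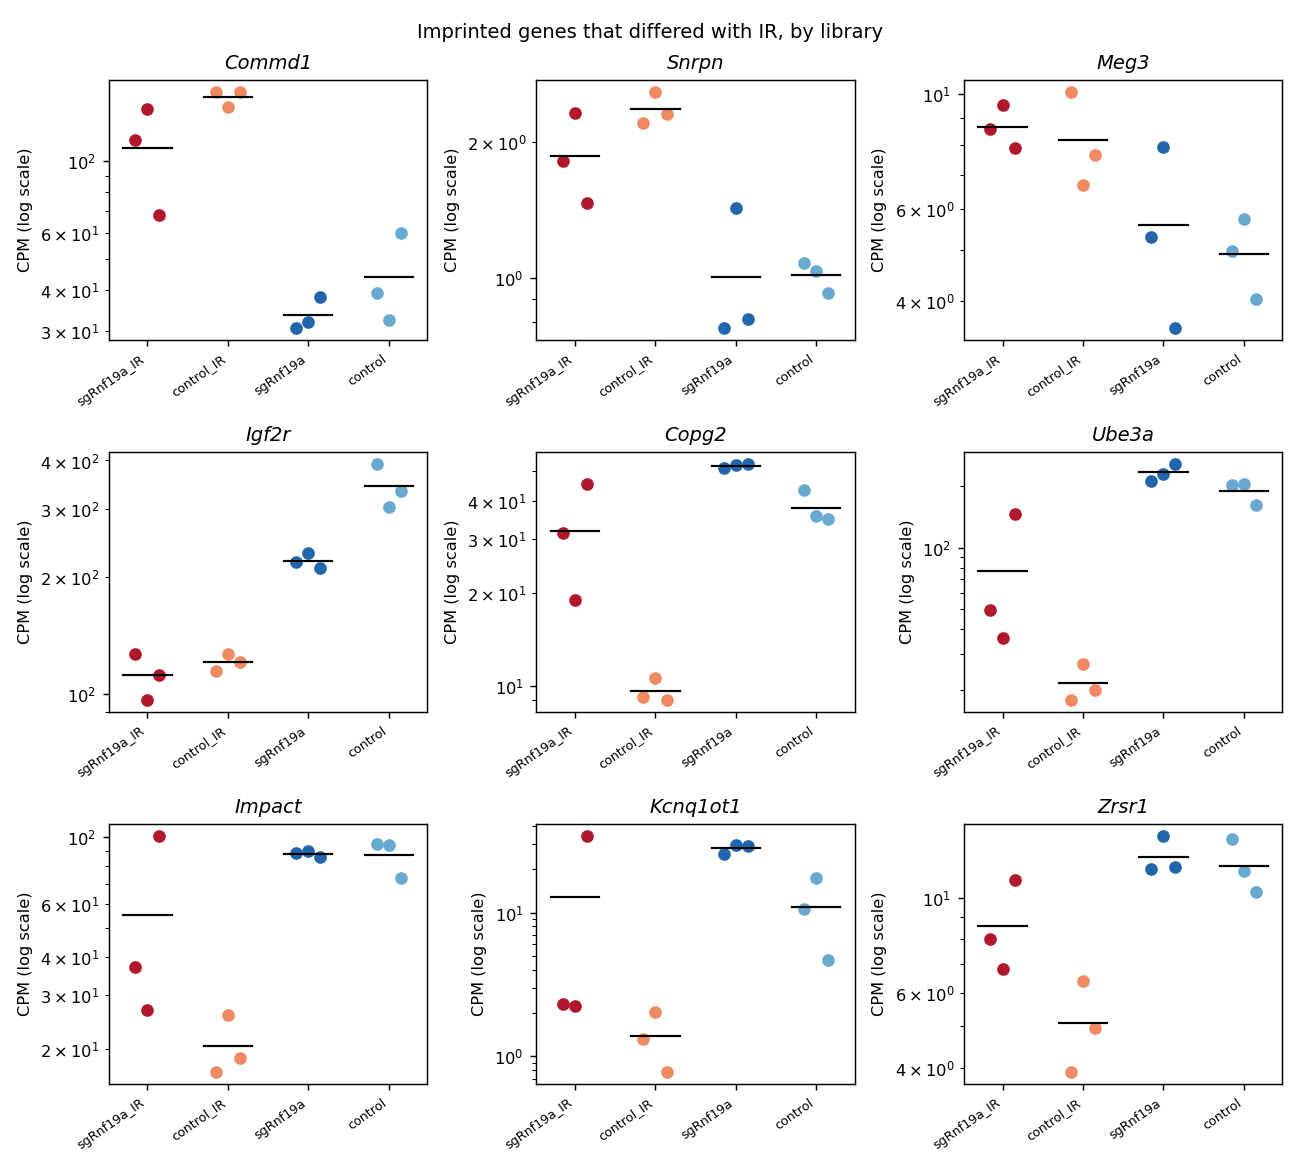
Level of 9 imprinted genes in CPM on a log axis (vertical) in each library of the 4 groups (horizontal); points are libraries and bars are group means. Commd1 is higher in all 6 IR-treated libraries than in any untreated one, Igf2r and Ube3a are lower in all 6, and sgRnf19a_IR replicate 4 reaches 34.2 CPM of Kcnq1ot1.

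The genes that differed with the guide had the following values under IR. Ppp1r9a had 2.62, 1.62 and 5.72 CPM in sgRnf19a_IR, against 14.3, 14.5 and 13.1 CPM in sgRnf19a, a log2 fold change of -2.07 ± 0.36 (SE; edgeR adjusted p = 0.0012) with no overlap and a corrected value of -1.47 (adjusted p = 0.000676). In control cells it had 0.85, 0.63 and 0.81 CPM with IR, against 0.61, 0.47 and 0.58 CPM without, a log2 fold change of 0.46 ± 0.40 (SE; edgeR adjusted p = 0.365) that was 1.91 in the corrected fit (adjusted p = 0.000196). Peg3 had 2.06, 1.29 and 1.72 CPM in control_IR, against 3.43, 3.93 and 2.83 CPM in control, and its log2 fold change of -1.01 ± 0.37 (SE; edgeR adjusted p = 0.0432) had the opposite sign in the corrected fit (0.25, adjusted p = 0.651). That call was lost without any of the 6 control-guide libraries (adjusted p = 0.052 to 0.135). In sgRnf19a cells Peg3 had 1.14, 1.14 and 0.958 CPM with IR, against 0.48, 1.29 and 0.55 CPM without, and these groups overlapped (0.48 ± 0.38; edgeR adjusted p = 0.366; 1.16 and adjusted p = 0.0437 in the corrected fit). In sgRnf19a cells Grb10 had 3.11, 3.17 and 2.88 CPM with IR, against 3.60, 0.61 and 0.69 CPM without, a log2 fold change of 0.90 ± 0.52 (SE; edgeR adjusted p = 0.202) that became 2.23 without sgRnf19a replicate 1 (adjusted p = 5.15e-05). In control cells Grb10 had 128, 168 and 161 CPM with IR, against 329, 328 and 302 CPM without. These groups did not overlap, but the log2 fold change of -1.07 ± 0.48 (SE) was not called (edgeR adjusted p = 0.0863; -0.44 and adjusted p = 0.446 in the corrected fit; adjusted p = 0.000264 without sgRnf19a replicate 1, which enters the shared estimate of the spread). Cdkn1c had log2 fold changes of 0.55 ± 0.37 (SE; edgeR adjusted p = 0.272) in sgRnf19a cells and 0.60 ± 0.43 (adjusted p = 0.281) in control cells. Phlda2 had log2 fold changes of -0.02 ± 0.25 and 0.20 ± 0.24 in sgRnf19a and control cells (SE; edgeR adjusted p = 0.955 and 0.546), and its corrected values were -0.65 (adjusted p = 0.0229) and -0.67 (adjusted p = 0.0156).

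**Figure D4:**
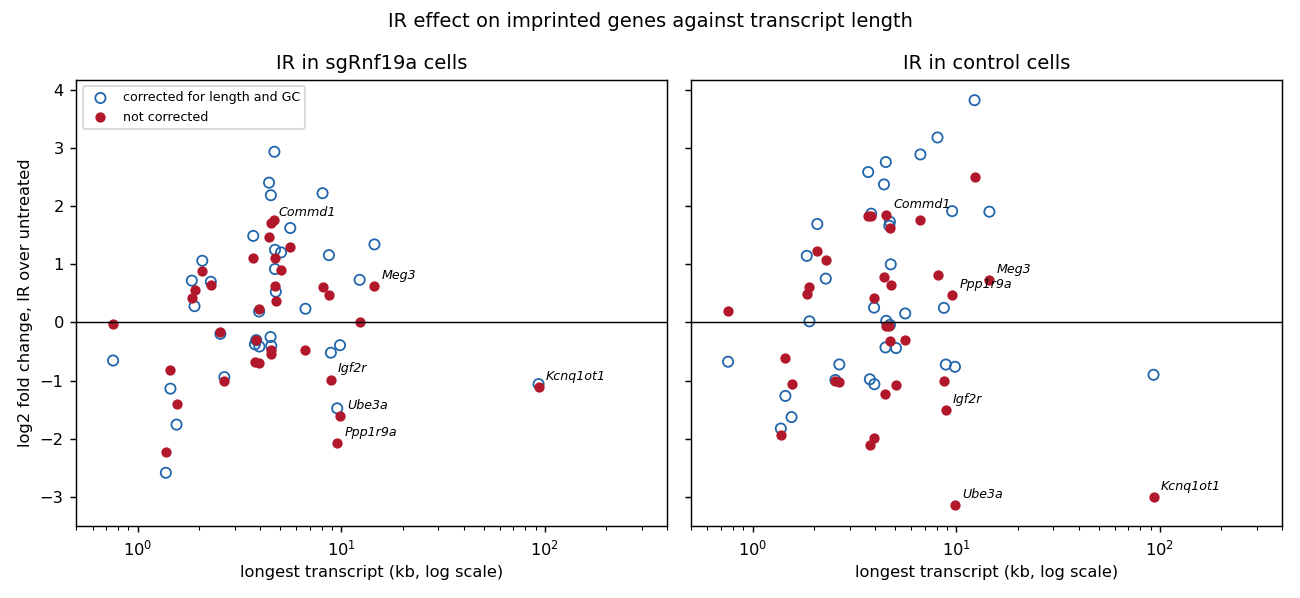
Log2 fold change of IR over no treatment (vertical) against the longest annotated transcript in kb on a log axis (horizontal) for the 34 tested members, in sgRnf19a cells (left) and control cells (right); filled points are from deposited counts and open points from the fit corrected for length and GC content. In control cells Kcnq1ot1, with 93092 bases, is at -2.99 on deposited counts and at -0.90 in the corrected fit, and Ube3a is at -3.14 and -0.76.

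The difference between the responses to IR in sgRnf19a and control cells was tested directly. None of the 34 members was called by edgeR, against 0.682% of all genes. DESeq2 called 4, against 12.4% of the genes to which it gave an adjusted p, and the corrected fit called 1, against 1.93%. For 7 members the unadjusted edgeR p was under 0.05. The share of all genes under that bound is not given here, so 7 is not shown to be an excess. Ppp1r9a had the largest difference among those 7, at -2.53 ± 0.54 (log2, SE; edgeR adjusted p = 0.059), and was called in the corrected fit (-3.39, adjusted p = 0.00207), by DESeq2 (adjusted p = 0.000473) and without sgRnf19a_IR replicate 3 (-2.21, adjusted p = 0.0115) or 4 (-3.17, adjusted p = 0.00237). Grb10 differed by 1.97 ± 0.70 (log2, SE; edgeR adjusted p = 0.152), and by 3.30 without sgRnf19a replicate 1 (adjusted p = 0.000273). The other 5 were Ube3a at 1.54, Peg3 at 1.49, Impact at 1.42, Copg2 at 1.28 and Igf2r at 0.53, with edgeR adjusted p of 0.163, 0.154, 0.171, 0.0995 and 0.16. The 7 include genes called under IR in control cells only, and that contrast in calls is therefore not shown to be a difference in response.

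Per transcript length Gnas, which encodes the stimulatory G protein alpha subunit, was first in every group, with mean levels of 46.6 FPKM in sgRnf19a_IR, 63.7 FPKM in control_IR, 54.8 FPKM in sgRnf19a and 66.9 FPKM in control. Commd1 came next in both IR-treated groups, at 14.5 FPKM in sgRnf19a_IR and 21.1 FPKM in control_IR, and Igf2r in both untreated groups, at 26.0 FPKM in sgRnf19a and 41.3 FPKM in control. Gnas was not called in any comparison, with edgeR adjusted p of 0.081 for the guide in IR-treated cells (log2 fold change -0.45) and 0.0814 for IR in control cells (0.42). At 1 FPKM or more, on group means, there were 10 members in sgRnf19a_IR, 8 in control_IR, 13 in sgRnf19a and 12 in control.

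The 19 members that were tested and called in no comparison on deposited counts were mostly close to the limit of detection, and apart from Gnas the highest had 8.16 CPM in any library. They include the growth promoter Igf2, at 0.293 CPM or less, and H19, the noncoding RNA beside it, at 1.41 CPM or less. Of the Dlk1 cluster, Rian, a host of small nucleolar RNAs, had 0.859 to 2.24 CPM, and Mirg, a host of microRNAs, had 0.574 CPM or less; Rian rose after IR in the corrected fit only, by 2.22 (log2; adjusted p = 0.00227) in sgRnf19a and by 3.18 (adjusted p = 0.000195) in control cells. Of the Snrpn cluster, Ndn, a growth-suppressing MAGE-family gene, had 0.946 CPM or less and Mkrn3, a RING-finger gene, 0.142 to 1.55 CPM. The retrotransposon-derived Peg10 and its neighbour Sgce, a sarcoglycan gene, had at most 0.376 and 0.58 CPM. Nnat, a small membrane protein gene inside Blcap, had 0.71 to 3.31 CPM, and Nap1l5, inside Herc3, 0.325 to 1.48 CPM. Peg13, inside Trappc9, had 0.429 to 2.38 CPM, the potassium channel gene Kcnk9 0.426 CPM or less, the exchange-factor gene Rasgrf1 0.542 to 1.85 CPM, and the proteoglycan gene Dcn 0.039 to 4.07 CPM. Under IR the corrected fit called Dcn in sgRnf19a cells (2.93, adjusted p = 0.0456), and Kcnk9 (3.82, adjusted p = 0.0262) and Nnat (lower with IR, adjusted p = 0.0379) in control cells. At these levels a few read pairs decide a value.

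A further 9 members were in the table but below the filter. Over all 12 libraries Plagl1 had 61 counts, Asb4 50, Rtl1 36, Usp29 29, Magel2 27, Peg12 22, Dlk1 16, Ddc 12 and Ascl2 3. All 12 counts of Ddc were in the 3 sgRnf19a_IR libraries, no more than the 12 counts (3 read pairs) taken as the limit that a count of 0 allows.

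Lists of related genes were counted beside the members, 3 in number, with all p-values adjusted over all genes. Of 26 tested imprinted genes outside the member list, 2 were higher and 0 lower with the guide in untreated cells, against 3.02% and 3.20% of all genes. In IR-treated cells 7 were higher and 5 lower, against 21.0% and 12.8%, and the corrected fit called 4 higher and 6 lower, against 11.4% and 14.9%. The median log2 fold changes were 0.09 and 0.19, against 0.03 and 0.07 over all genes. Qpct, which encodes glutaminyl cyclase, was higher in both, by 1.72 ± 0.16 (log2, SE; edgeR adjusted p = 2.16e-05) in IR-treated and 1.34 ± 0.15 (adjusted p = 0.000187) in untreated cells, with corrected values of 1.07 and 1.12. Pon3 was the other gene in untreated cells. In IR-treated cells the Polycomb-related Sfmbt2 was higher by 2.82 ± 0.39 and the phospholipid flippase gene Atp10a by 1.07 ± 0.15 (log2, SE; edgeR adjusted p = 0.000464 and 0.000437), or by 1.95 and 0.91 in the corrected fit. The paraoxonase gene Pon2, at 0.86 (adjusted p = 0.0011), was at -0.03 in the corrected fit (adjusted p = 0.948). After IR 5 rose and 6 fell in sgRnf19a cells and 7 rose and 8 fell in control cells, against 18.0% and 17.6% of all genes in sgRnf19a cells and 22.2% and 25.7% in control cells. The medians were 0.07 and -0.14, against -0.02 over all genes in both, and the corrected fit called 5 higher and 4 lower in sgRnf19a cells, against 19.1% and 16.6% of all genes, and 9 higher and 4 lower in control cells, against 24.3% and 17.3%. Chrac1, a histone-fold gene of a chromatin remodeller, rose in both, by 1.64 ± 0.20 and 1.69 ± 0.20 (log2, SE; edgeR adjusted p = 0.000148 and 9.11e-05; 1.63 and 1.78 in the corrected fit). The AMP deaminase gene Ampd3 fell by 1.89 (log2; adjusted p = 0.000187; -1.83 in the corrected fit) in sgRnf19a cells, and the fall of Ago2 by 0.99 (log2; adjusted p = 9.19e-05) in control cells was absent from the corrected fit (0.19, adjusted p = 0.404).

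Of 23 tested genes for imprint maintenance and DNA methylation, 0 differed with the guide in untreated cells by edgeR, against 6.22% of all genes. The median log2 fold change was 0.08, against 0.03 over all genes. The unadjusted edgeR p was under 0.05 for 3, and DESeq2 called 1. The shares of all genes for these last counts are not given here. In IR-treated cells 13 were higher and 2 lower in sgRnf19a_IR, against 21.0% and 12.8% of all genes, with a median of 0.66, against 0.07. The corrected fit called 4 higher and 3 lower, against 11.4% and 14.9% of all genes. Dnmt3b, a de novo DNA methyltransferase, was lower by -1.97 ± 0.24 (log2, SE; edgeR adjusted p = 0.000193) and at -1.96 in the corrected fit. Hells, a helicase needed for DNA methylation, was higher by 2.31 ± 0.47 (adjusted p = 0.00396), the histone demethylase gene Kdm1b by 1.44 ± 0.28 (adjusted p = 0.0029) and the Polycomb gene Eed by 1.16 ± 0.20 (adjusted p = 0.00183), on the same scale and by the same edgeR test. Their corrected values were 0.94 (adjusted p = 0.00694), 0.60 (adjusted p = 0.0214) and 0.86 (adjusted p = 0.00157). After IR 17 fell and 0 rose in sgRnf19a cells, and 18 fell and 0 rose in control cells, against 17.6% and 25.7% of all genes that fell. The medians were -0.97 and -1.25, against -0.02 over all genes in both. The corrected fit called 12 and 14 lower and 0 higher, against 16.6% and 17.3% of all genes lower. Dnmt1, the maintenance methyltransferase, and the histone methyltransferase gene Ehmt1 both had -0.97 in sgRnf19a cells (log2; edgeR adjusted p = 0.000255 and 0.000433), and -0.71 and -0.70 in the corrected fit. In control cells the Polycomb methyltransferase gene Ezh2 had -2.06 ± 0.22 and Kdm1b -2.13 ± 0.28 (log2, SE; edgeR adjusted p = 6.8e-05 and 0.000131), and -1.36 and -0.99 in the corrected fit.

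Of 21 tested genes for insulin and IGF signalling, the pathway that Grb10 and Igf2r restrain, 2 were lower and 0 higher with the guide in untreated cells, against 3.20% and 3.02% of all genes, with a median of -0.14, against 0.03. Both encode binding proteins of IGFs, and Igfbp3 was near the limit of detection. Its mean was 0.0723 CPM in sgRnf19a (16 counts in all), against 1.16 CPM in control cells. Igfbp3 had -3.98 ± 0.94 and Igfbp6 -1.19 ± 0.27 (log2, SE; edgeR adjusted p = 0.0264 and 0.0196), and -3.98 and -0.92 in the corrected fit. In IR-treated cells 5 were higher and 2 lower, against 21.0% and 12.8% of all genes, with a median of 0.16, against 0.07. The corrected fit called 1 higher and 4 lower, against 11.4% and 14.9%. Igfbp6 was again lower, by -1.86 ± 0.27 (adjusted p = 0.000664), or -1.27 in the corrected fit. Igfbp3 was not called there, at -1.56 (log2, edgeR adjusted p = 0.183). The PI3-kinase subunit gene Pik3r1 and Gigyf2, which encodes a GRB10-interacting protein, were higher by 1.40 and 1.09 (log2; edgeR adjusted p = 0.00702 and 0.019). Neither was called in the corrected fit (adjusted p = 0.146 and 0.0706). After IR 1 rose and 10 fell in sgRnf19a cells and 2 rose and 11 fell in control cells, against 35.6% and 47.9% of all genes called in either direction (17.6% and 25.7% lower). The medians were -0.45 and -0.84, against -0.02 over all genes in both. The corrected fit called 2 higher and 4 lower, and 1 higher and 3 lower, against 35.7% and 41.7% of all genes in either direction. Igf1r, the IGF1 receptor gene, had -0.90 and -1.13 (log2; edgeR adjusted p = 0.000355 and 8.28e-05), and -0.31 and -0.07 in the corrected fit (adjusted p = 0.114 and 0.732). In control cells the insulin receptor gene Insr had -1.52 (adjusted p = 9.49e-05) and -0.23 in the corrected fit (adjusted p = 0.259). In sgRnf19a cells Igf2bp3, which encodes an Igf2 mRNA-binding protein, had -0.94 (adjusted p = 0.00057) and -0.61 in the corrected fit (adjusted p = 0.0114). In the difference between the responses to IR, edgeR called 0 genes of each list, against 0.682% of all genes. An unadjusted p under 0.05 was found for 7 other imprinted genes, 10 genes of imprint maintenance and 5 of insulin and IGF signalling. The share of all genes with such a p is not given here. Over the whole of each list DESeq2 called 5, 4 and 2 genes, against 12.4% of the genes to which it gave an adjusted p. The corrected fit called 1 higher and 1 lower gene of imprint maintenance and 0 of the other lists, against 1.93% of all genes.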

How the data were processed

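Gene counts and FPKM were taken from the authors' deposited tables. Per the labels' protocols, RNA was depleted of ribosomal RNA, made into strand-marked libraries and read as pairs. The submitters' processing notes name Bowtie2, HTSeq, DESeq2 and the builds mm10 and GRCm39. Their roles and the strand setting of the counting were not found in these sources. Deposited counts were whole, with low values piled up at 4 (5958 times, against 989 at 3 and 1000 at 5), so they were treated as estimated counts. The deposited FPKM are per length and depth, by the authors; the 12 count columns beside them were left out. Untreated columns were matched by guide and number.

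The members and lists were chosen with earlier results of these data known. Every member is accounted for; members called in any comparison are given per library, and up to 4 called genes of smallest p per list and comparison are named. One such gene is not reported here. Genes were kept by filterByExpr (minimum count 10, minimum total 15; 18183 kept), scaled by TMM and fitted over 4 group means with edgeR 4.0.16 (glmQLFit robust, glmQLFTest, two-sided) in R 4.3.3. p-values were Benjamini-Hochberg adjusted over all genes, with calls under 0.05. CPM are TMM-scaled. An SE is the log2 fold change divided by the square root of F. Alternatives were DESeq2 1.42.0, other scalings and filters, only the groups compared, counts divided by 4, regression on length and GC content (splines, 5 degrees of freedom, 18159 genes), limma 3.58.1 on log2(FPKM + 1) or log2(FPKM + 0.1), a replicate block and each library left out. The fit was also run on simulated counts with the same dispersion for every gene. These had no outlying library and no transcript-length bias, so that run does not test the fit under such conditions. Libraries of a group differed by more than counting noise. Same-numbered untreated libraries did not deviate together (correlations -0.16, -0.01 and 0.03), so numbers were not taken as pairs. Limits from counts cover counting error only.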

Additional observations from a re-analysis of the deposited data

How the results depend on the processing

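Of the 31 called pairs of a member and a comparison, 15 kept their direction and call under every alternative that held the gene: Grb10, Cdkn1c, Ppp1r9a and Peg3 (guide, untreated), Grb10, Cdkn1c and Copg2 (guide, IR-treated), Igf2r, Ppp1r9a and Commd1 (IR, sgRnf19a) and Igf2r, Copg2, Ube3a, Impact and Commd1 (IR, control). Genes with a mean under 0.5 FPKM, Ppp1r9a and Peg3 among them, were not in the limma fits with a filter. Over all 702 recomputed values of the 31 pairs, 608 kept direction and call, 93 lost the call and 1 turned: Peg3 under IR in control cells, at 0.25 with the length and GC correction. Phlda2, not called there, turned to -0.67 with that correction. The count of members called for the guide in IR-treated cells, 10, was 4 with only the groups compared and 5 with limma on log2(FPKM + 1) without a filter. For IR in sgRnf19a cells, 6 became 3 with only the groups compared, 13 with the length and GC correction, 10 with limma on log2(FPKM + 1) or log2(FPKM + 0.1), and 12 with limma on log2(FPKM + 1) without a filter. For the difference between the responses, 0 became 4 with DESeq2, 1 with upper-quartile factors, at least 1 CPM in 3 libraries, the correction or limma on log2(FPKM + 1), and 2 with limma without a filter; only the groups compared could not be run, as it uses all groups. The cause was not tested. For IR in sgRnf19a cells the correction called 35.7% of all genes, against 35.6% without it. For the difference, DESeq2 called 12.4% of the genes to which it gave an adjusted p, and the correction 1.93% of all genes, against 0.682% with edgeR. For the other alternatives and for libraries left out, the share of all genes is not given here. A count that moved is therefore not shown to be particular to the members. Leaving out 1 library gave 4 to 7 called for the guide in untreated cells, 6 to 13 for the guide in IR-treated cells (6 without control_IR replicate 1 or 5), 4 to 12 for IR in sgRnf19a cells (12 without sgRnf19a_IR replicate 4), 7 to 12 for IR in control cells and 0 to 5 for the difference (5 without sgRnf19a_IR replicate 3, 1 without its replicate 4 or sgRnf19a replicate 1). A replicate block on the untreated libraries called 7, as did only the groups compared. Scaling moved the median of all genes under IR to 0.19 in control cells with upper-quartile factors (-0.02 with TMM), and to -0.40 in sgRnf19a and -0.34 in control cells on log2(FPKM + 1). Members under about 5 CPM are limited by depth.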

Other observations

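sgRnf19a replicate 1 stood apart from the other libraries of its group in several low members. Dcn had 2.78 CPM there, against 0.039 and 0.248 CPM in replicates 2 and 3. H19 had 1.23 CPM, against 0.026 and 0.22 CPM, and Grb10 3.60 CPM, against 0.61 and 0.69 CPM. The summed fibroblast markers were 142 CPM in that library and 58.2 and 62.8 CPM in the other two. Cdkn1c, Ppp1r9a and Igf2r were level across the 3 libraries, at 7.52 to 8.46 CPM, 13.1 to 14.5 CPM and 212 to 231 CPM. These libraries were picked out after their values were seen, and no test was made.

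Of 5 epithelial markers, the keratin genes Krt8 and Krt18 had counts in every library, whereas Epcam had means of 0.829 to 1.52 CPM, and Cdh1 and Cldn4 at most 0.0605 and 0.074 CPM, over the 4 groups. Krt8 had 151 to 318 CPM in sgRnf19a_IR, 598 to 708 CPM in control_IR, 198 to 215 CPM in sgRnf19a and 307 to 381 CPM in control. Col3a1, a collagen gene that made up most of the fibroblast sum in cells with the control guide, had 47.1 to 59.8 CPM in sgRnf19a_IR, 323 to 361 CPM in control_IR, 18.98 to 48.9 CPM in sgRnf19a and 383 to 438 CPM in control.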
